A study of Homo sapiens with 15 samples.

Results

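The cellular handling of iron was followed through 10 genes in MIA PaCa-2, a line from a human pancreatic carcinoma: TFRC, STEAP3 and SLC11A2 for uptake, FTL, FTH1 and NCOA4 for storage and release from storage, SLC40A1 for export, and IREB2, ACO1 and FBXL5 for regulation. The genes were picked by name for their known roles, each matched 1 row of the 60107 genes listed, and 9 of the 10 had enough reads to be tested among 10495 genes. RNA was sequenced from 15 libraries in 5 groups of 3, and all treatments lasted 24 h. The groups were vehicle (Ctrl), Lys05 at 5 µM, BAQ12 at 5 µM, BAQ13 at 5 µM and BAQ12O at 5 µM. Lys05 is a bisaminoquinoline that blocks autophagy, and BAQ12 and BAQ13 join its pharmacophore with that of a lysosomotropic detergent, assemble into nanoparticles and differ from each other by a single methylene unit. The series' design text writes 12O for the fifth agent, whose structure is not given in the sources used here. All libraries came from 1 cell line, so nothing here extends to other cells, and the labels do not say whether replicates 1 to 3 of a group were separate cultures, so that p-values measure only the spread between these libraries.

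Transferrin carries ferric iron to the transferrin receptor, the receptor is taken into endosomes, and the acid there frees the iron, which a STEAP reductase reduces and a divalent metal transporter moves into the cytosol. Surplus iron is stored in ferritin, a shell of heavy (FTH1) and light (FTL) chains, and NCOA4 brings ferritin to the lysosome, where it is degraded and its iron released. When cells lack iron, the iron regulatory proteins, encoded by ACO1 and IREB2, bind hairpins called iron-responsive elements (IREs): binding in a 5′ UTR blocks translation, as for the ferritins, and binding in the 3′ UTR of TFRC protects the mRNA from decay. Both uptake and the recovery of stored iron thus pass through acid compartments, which lysosomotropic amines enter.

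The hairpins that set these transcripts apart were located in the GENCODE release 29 transcripts (GRCh38), because TFRC and FTL, the genes that passed the test below, carry them at opposite ends. The search was for an unpaired C, 5 bases, CAGTGN and 5 bases that could pair with the first 5, G-T pairs included, on the transcript strand only. Each is printed below as the 27 bases of the DNA sense strand from 5′ to 3′, with the loop CAGTGN in capitals. Nearest and farthest refer to the matches printed. Elements with another loop or an interrupted stem are missed by this search, so the matches need not be the full set.
TFRC 3′ UTR, nearest the coding region, chr3:196050980-196051006, minus strand: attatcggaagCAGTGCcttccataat
TFRC 3′ UTR, next, chr3:196050576-196050602, minus strand: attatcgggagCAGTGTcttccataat
TFRC 3′ UTR, next, chr3:196050511-196050537, minus strand: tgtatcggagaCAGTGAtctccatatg
TFRC 3′ UTR, farthest, chr3:196050464-196050490, minus strand: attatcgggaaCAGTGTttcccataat
FTH1 5′ UTR, chr11:61967575-61967601, minus strand: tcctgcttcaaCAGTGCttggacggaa
FTL 5′ UTR, chr19:48965336-48965362, plus strand: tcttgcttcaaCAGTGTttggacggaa
The elements of the ferritins were identical in 25 of 27 bases and differed by C3T and C17T, written with the base of FTH1 first and counted from the 5′ end of the printed sequence. SLC40A1 held the motif in its 5′ UTR (chr2:189580662-189580688, minus strand). The motif was found in 4 of the 10 genes and in 291 of 19669 protein-coding genes (1.48%), counted over whole transcripts of differing length. A match is a description of the sequence, and binding was not measured. The absence of a match, as for SLC11A2, does not show that a gene lacks an element. Splice forms could not be told apart in gene-level counts, which matters for SLC11A2, whose transcripts end in different 3′ UTRs.

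The values are normalised read counts, that is, the reads on a gene over the size factor that the authors applied to its library. The libraries held between 1586566 and 2500551 reads on genes, with a median of 2230594, and a count of 3 reads corresponded to a normalised count of 2.49 to 4.14. KRT8, KRT18, KRT19 and VIM were read in every library, with VIM at 9198 to 10781 normalised counts, whereas the epithelial markers EPCAM and CDH1 had at most 1 and 5 reads. Markers of leukocytes (PTPRC), endothelium (PECAM1), fibroblasts (COL1A1), erythroid cells (HBB), hepatocytes (ALB) and acinar cells (PRSS1) had at most 6 reads in any library, and PECAM1, ALB and PRSS1 had none. BAQ12 replicate 3 stood apart. Its deviation from its group mean correlated across 10495 genes, which are not independent, at 0.57 with that of BAQ13 replicate 1 and at -0.49 with that of BAQ13 replicate 3. Deviations within a group cancel out, so the value for BAQ13 replicate 3 is not independent of that for replicate 1. In BAQ12 replicate 3, 20.6% of reads fell on mitochondrial genes against 17.4% to 18.1% in Ctrl. Values without this library or without BAQ13 replicate 1 are given where they change a call.

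Of the 9 genes tested, 1 rose and 1 fell against Ctrl. FTL rose with BAQ13, TFRC fell with BAQ12O, and no gene passed an adjusted p of 0.05 with Lys05 or BAQ12 by limma, a two-sided moderated test fitted over all 15 libraries. The 4 comparisons share the 3 Ctrl libraries and are not independent of each other. Over all genes tested, BAQ13 gave 3.58% higher and 2.19% lower calls, BAQ12O 0.934% and 0.543%, BAQ12 0.572% and 0.41%, and Lys05 0.0762% and 0.162%. With so few calls in the whole transcriptome, 0 of 9 iron genes with Lys05 or BAQ12 is a share that the background would also give. With Lys05, none of the 9 genes had an unadjusted p under 0.05 by limma, and with BAQ12 there was 1, namely FTL. Of all 10495 genes tested, 523 had such a value with Lys05 and 1239 with BAQ12. On the recovered reads, edgeR and DESeq2 each called 0 genes with Lys05, 0 with BAQ12, 1 with BAQ13 and 1 with BAQ12O. Of all genes tested, in that order, edgeR called 0.229%, 0.972%, 6.57% and 1.52%, and DESeq2 0.257%, 1.04%, 5.1% and 1.44%. The median log2 fold change over the 9 genes was 0.10 with Lys05, -0.02 with BAQ12, 0.26 with BAQ13 and 0.04 with BAQ12O, where the median of all genes tested lay between -0.0042 and 0.0018. In bulk RNA, fewer cells with a transcript and less of it per cell cannot be told apart.

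**Figure D1:**
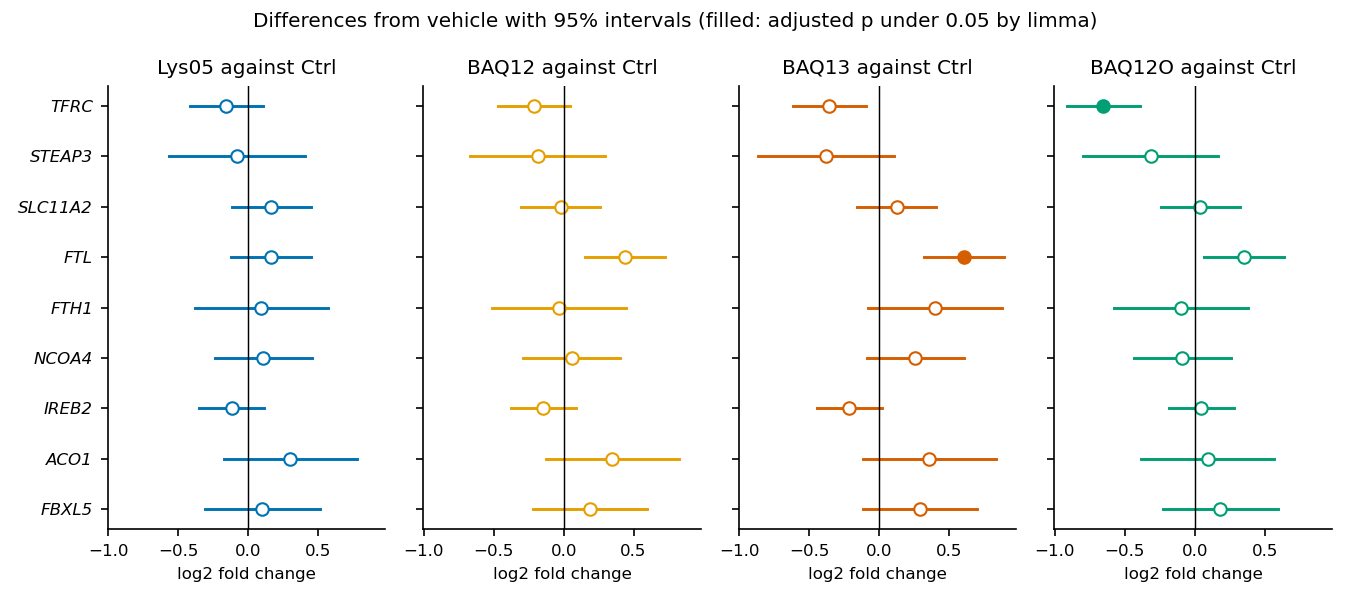
The log2 fold change against Ctrl (x axis) is plotted for 9 iron genes (y axis) in 1 panel per compound, with the 95% confidence interval of limma as a line and a filled point where the adjusted p is under 0.05. The filled points are TFRC with BAQ12O at -0.65 and FTL with BAQ13 at 0.60, and the intervals of FTL with BAQ12 and BAQ12O and of TFRC with BAQ13 also lie clear of 0.

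TFRC (ENSG00000072274; chr3:196027183-196082189, minus strand), the transferrin receptor, was highest in Ctrl and lowest with BAQ12O. Its normalised counts were 177, 183 and 207 in Ctrl, 169, 154 and 186 with Lys05, 156, 162 and 171 with BAQ12, 147, 136 and 159 with BAQ13, and 135, 128 and 99.3 with BAQ12O. Every library of BAQ12, BAQ13 and BAQ12O lay below every Ctrl library, while those of Lys05 overlapped Ctrl. The means ± SD (n = 3 each) were 189 ± 16.2 in Ctrl, 169.7 ± 15.8 with Lys05, 163 ± 7.48 with BAQ12, 147 ± 11.7 with BAQ13 and 121 ± 18.8 with BAQ12O. With BAQ12O the log2 fold change was -0.65 (standard error, SE = 0.12, limma adjusted p = 0.009), and the mean fell by 36.2%. The call depended on single libraries: the adjusted p was 0.0595 without BAQ12O replicate 3, the lowest of its group at 72 reads, and 0.0757 without Ctrl replicate 3, the highest. With BAQ13 the log2 difference was -0.36 (95% confidence interval -0.62 to -0.10, adjusted p = 0.103 by limma). It passed the test at the same size once BAQ12 replicate 3, which is in neither group, was left out of the shared estimate of the spread (adjusted p = 0.0364 by limma). The differences with BAQ12 (log2 -0.21, interval -0.47 to 0.05) and Lys05 (log2 -0.16, interval -0.42 to 0.10) did not pass. In the order Ctrl, Lys05, BAQ12, BAQ13 and BAQ12O, no neighbouring groups differed at an adjusted p of 0.05, with values from 0.355 to 0.999 by limma.

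STEAP3 (ENSG00000115107; chr2:119223831-119265652, plus strand), the endosomal ferrireductase, and SLC11A2 (ENSG00000110911; chr12:50979401-51028566, minus strand), the divalent metal transporter DMT1, stand next to the receptor in the uptake route. STEAP3 had few reads, 13 to 25 per library, and its normalised counts were 19.1, 20.1 and 23 in Ctrl, 16, 26 and 17.7 with Lys05, 14.7, 18.7 and 21.3 with BAQ12, 14.9, 14.6 and 17.6 with BAQ13, and 16.2, 15.3 and 17.9 with BAQ12O. All BAQ13 and BAQ12O libraries lay below all Ctrl libraries, but the log2 differences of -0.38 and -0.31 did not pass (adjusted p = 0.4 and 0.612 by limma). Their intervals, -0.86 to 0.10 and -0.80 to 0.17, are wide at this depth. SLC11A2 had normalised counts of 87.2, 90.5 and 86.3 in Ctrl, 93.7, 111 and 92.4 with Lys05, 70.6, 97.8 and 94.2 with BAQ12, 92.4, 93 and 103 with BAQ13, and 90.6, 84.85 and 96.5 with BAQ12O. The Lys05 and BAQ13 libraries were above those of Ctrl and the others overlapped them. Its log2 differences from Ctrl ran from -0.02 with BAQ12 to 0.17 with Lys05, and none passed the test.

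FTL (ENSG00000087086; chr19:48965301-48966878, plus strand), the light chain of ferritin, was higher in each of the 12 treated libraries than in any Ctrl library. The normalised counts were 4894, 4929 and 4799.9 in Ctrl, 5412, 5419 and 5529 with Lys05, 5442, 5952 and 8933 with BAQ12, 8704, 7167 and 6512 with BAQ13, and 5800.5, 6301 and 6602 with BAQ12O. Ctrl and Lys05 were tight, whereas BAQ12 replicate 3 and BAQ13 replicate 1 stood well above the rest of their groups. The means ± SD of 3 libraries were 4874 ± 66.7 in Ctrl, 5454 ± 65.3 with Lys05, 6776 ± 1886 with BAQ12, 7461 ± 1125 with BAQ13 and 6235 ± 405 with BAQ12O. With BAQ13 the log2 fold change was 0.60 (SE = 0.14, limma adjusted p = 0.0121), a mean 53.1% above that of Ctrl. Without BAQ13 replicate 1 it was 0.49 (adjusted p = 0.069 by limma), and without Ctrl replicate 3 it was 0.59 (adjusted p = 0.0572 by limma). With BAQ12 the log2 difference was 0.44 (interval 0.15 to 0.73, adjusted p = 0.187 by limma), and without BAQ12 replicate 3 it was 0.22 (adjusted p = 0.278 by limma). It passed without BAQ12 replicate 1 (0.58, adjusted p = 0.0432 by limma) and without both BAQ12 replicate 3 and BAQ13 replicate 1 (0.22, adjusted p = 0.0105 by limma). The difference also passed with limma's arrayWeights, which weight each library by its spread (0.28, adjusted p = 0.00289 by limma). The weights of BAQ12 replicates 1 to 3 were 0.755, 3.97 and 0.125, so the weighted estimate rests mostly on replicate 2. With BAQ12O the log2 difference was 0.35 (interval 0.07 to 0.64, adjusted p = 0.254 by limma), which passed without BAQ12 replicate 3 (adjusted p = 0.00293 by limma). With Lys05 it was 0.16 (interval -0.12 to 0.45), and it passed only where the fit was restricted to the 6 libraries compared (adjusted p = 0.00392 by limma).

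FTH1 (ENSG00000167996; chr11:61959718-61967660, minus strand), the heavy chain with the ferroxidase activity, gave no call with any compound. Its normalised counts were 399, 391 and 413 in Ctrl, 454, 429 and 403 with Lys05, 537, 476 and 235 with BAQ12, 426, 571 and 609 with BAQ13, and 458, 389.9 and 294 with BAQ12O. All BAQ13 libraries were above all Ctrl libraries, and BAQ12 held the lowest library of all. With BAQ13 the mean was 535 ± 96.3 (SD, n = 3) against 401 ± 11.3 (SD, n = 3) in Ctrl, a log2 difference of 0.40 (interval -0.08 to 0.88, adjusted p = 0.36 by limma). It passed at the same size with BAQ12 replicate 3 left out (adjusted p = 0.0222 by limma) and with only the 6 libraries compared (adjusted p = 0.0363 by limma). With arrayWeights it passed at 0.48 (adjusted p = 0.000869 by limma). With BAQ12 the log2 difference was -0.03, and it was 0.34 without replicate 3 (adjusted p = 0.363 by limma). With BAQ12O it was -0.10 (interval -0.58 to 0.38) and with Lys05 0.10 (interval -0.38 to 0.57).

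The libraries in which FTL was highest relative to FTH1 were also those with a high share of mitochondrial reads. The number of FTL reads per FTH1 read, used only to set libraries side by side, was 12.3, 12.6 and 11.6 in Ctrl, 11.9, 12.6 and 13.7 with Lys05, 10.1, 12.5 and 38 with BAQ12, 20.4, 12.6 and 10.7 with BAQ13, and 12.7, 16.2 and 22.5 with BAQ12O. The 3 highest ratios belonged to BAQ12 replicate 3, BAQ12O replicate 3 and BAQ13 replicate 1, each the highest of its group in mitochondrial share, at 20.6%, 20.4% and 18.7%. The other BAQ12 and BAQ13 libraries had 15.8% to 16.8%, and BAQ12O replicates 1 and 2 had 19.2% and 19%. The part of this share in the ferritin values was not tested. Few reads were assigned to ferritin pseudogenes: the 25 listed FTH1 pseudogenes had at most 5 reads together in a library and the 16 listed FTL pseudogenes at most 1. Their highest shares of the family in any library were 0.917% and 0.0192%. Reads that align equally well to a ferritin gene and a pseudogene may have been left uncounted. These counts cannot show how many were lost in that way. BEST1, which overlaps FTH1 on the opposite strand, had at most 2 reads.

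**Figure D2:**
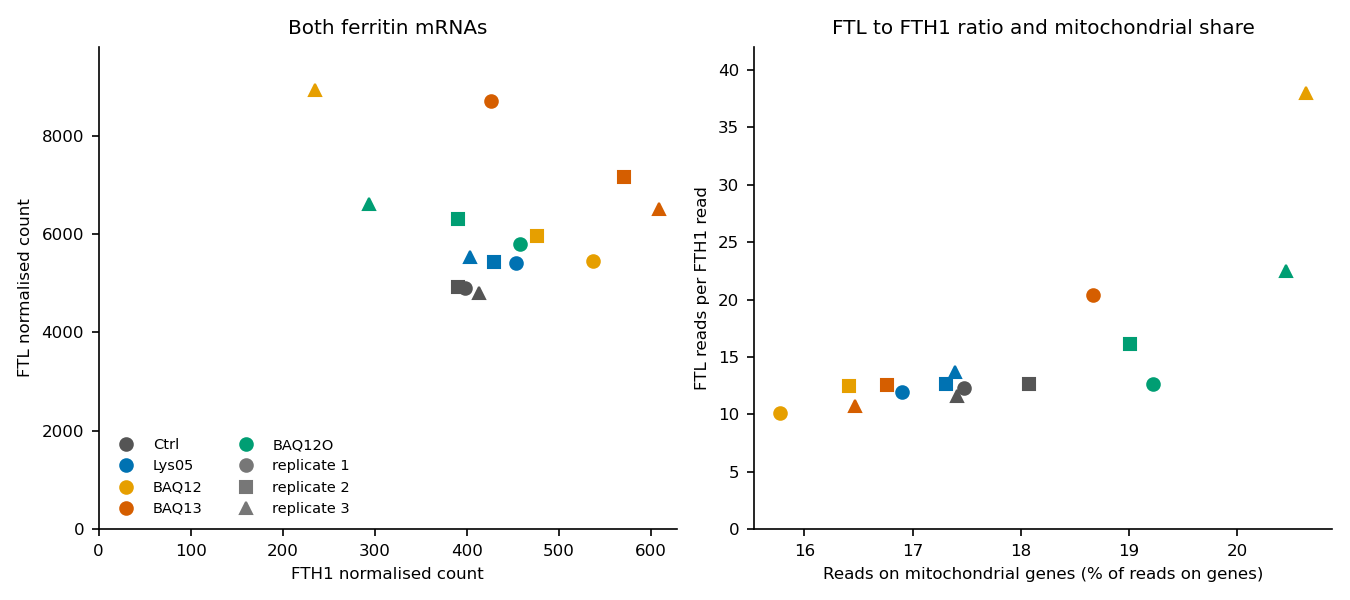
Left, normalised counts of FTL (y axis) against FTH1 (x axis) in the 15 libraries; right, FTL reads per FTH1 read (y axis) against the percentage of reads on mitochondrial genes (x axis); colours mark groups and shapes replicate numbers. The Ctrl and Lys05 libraries lie together, while BAQ12 replicate 3 has the most FTL, the least FTH1 and a ratio of 38.

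NCOA4 (ENSG00000266412; chr10:46005088-46030714, minus strand) encodes the receptor that carries ferritin into autophagosomes. Its normalised counts were 106, 113 and 107 in Ctrl, 126, 124 and 104 with Lys05, 138, 107 and 98 with BAQ12, 98, 141 and 160.1 with BAQ13, and 101, 111 and 95.1 with BAQ12O. Each treated group overlapped Ctrl, and the low libraries of BAQ12 and BAQ13 were again BAQ12 replicate 3 and BAQ13 replicate 1. The log2 differences ran from -0.09 with BAQ12O to 0.26 with BAQ13, and none passed. The difference with BAQ13 was 0.26 without BAQ12 replicate 3 (adjusted p = 0.252 by limma) and 0.46 without BAQ13 replicate 1 (adjusted p = 0.111 by limma). It passed without both (adjusted p = 0.0099 by limma), in a fit chosen after seeing the data. With arrayWeights it also passed (0.35, adjusted p = 0.0221 by limma), where 22.2% of all genes did. The 15 libraries share group means and so are not independent points. Over them, the log2 values of NCOA4 and FTH1 had a Pearson correlation of 0.76, the highest among all pairs of the 9 genes tested. The lowest was -0.70, for FTL and IREB2, and FTL and FTH1 had -0.29. SLC40A1 (ENSG00000138449; chr2:189560579-189583758, minus strand), ferroportin, the only known exporter of iron from cells, had 0 reads in all 15 libraries. For 1 library alone, 0 reads allow up to 3 reads, or 2.49 to 4.14 normalised counts, by counting error. The bound from 0 reads in all 15 libraries is lower and was not computed.

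**Figure D3:**
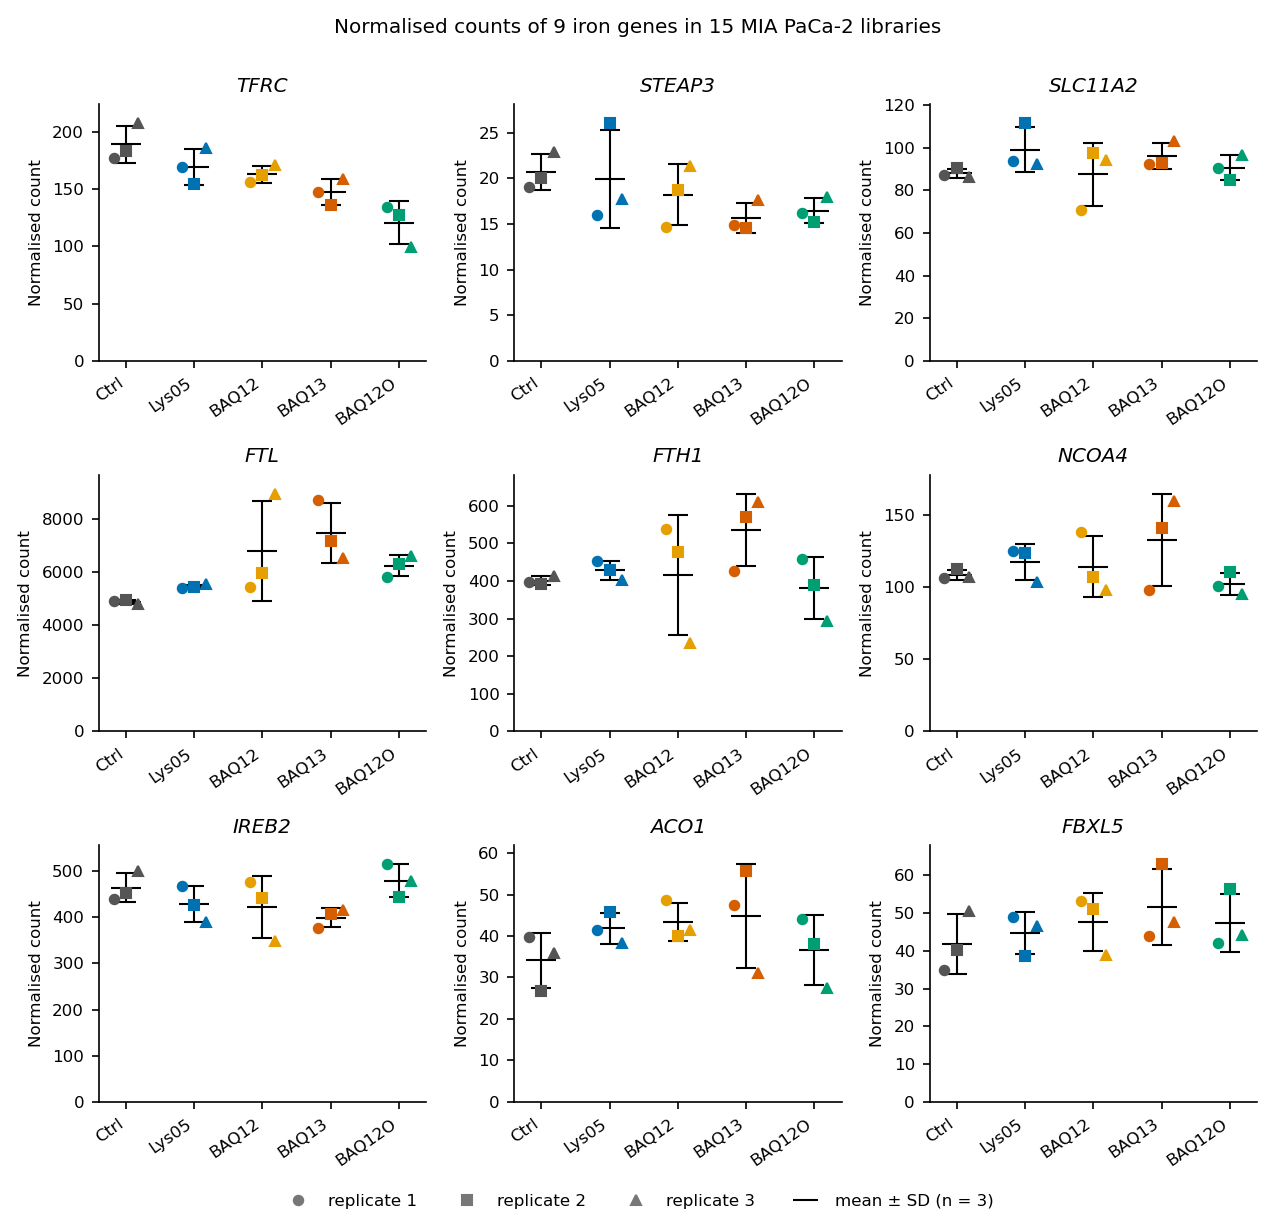
Normalised counts (y axis, from 0) of 9 iron genes by group (x axis), with 1 point per library, its shape giving the replicate number, and the mean ± SD (n = 3) in black. The means of TFRC descend from Ctrl to BAQ12O, FTL lies above Ctrl in every treated group, and the wide BAQ12 bars of FTL and FTH1 come from replicate 3.

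The regulators showed no change past the test. IREB2 (ENSG00000136381; chr15:78437431-78501456, plus strand) encodes iron regulatory protein 2, and ACO1 (ENSG00000122729; chr9:32384603-32454769, plus strand) iron regulatory protein 1, which is a cytosolic aconitase when it holds an iron-sulphur cluster. FBXL5 (ENSG00000118564; chr4:15604539-15681679, minus strand) encodes the iron-sensing subunit of the ubiquitin ligase that directs IREB2 protein to degradation. IREB2 had normalised counts of 438, 453 and 499 in Ctrl, 469, 426 and 390.2 with Lys05, 477, 441 and 348 with BAQ12, 376, 406 and 415 with BAQ13, and 514, 443 and 478 with BAQ12O. The BAQ13 libraries lay below all Ctrl libraries and the other groups overlapped Ctrl, with a log2 difference for BAQ13 of -0.21 (interval -0.45 to 0.02, adjusted p = 0.304 by limma). ACO1 ranged from 26.8 to 39.9 in Ctrl and from 27.6 to 55.6 in the treated libraries, on 20 to 61 reads. The 3 BAQ12 libraries, at 48.6, 39.95 and 41.5, were above the highest Ctrl library at 39.85, and the log2 differences from Ctrl were 0.30 with Lys05, 0.35 with BAQ12, 0.36 with BAQ13 and 0.09 with BAQ12O, with adjusted p of 0.419 or more by limma. FBXL5 ranged from 34.9 to 50.5 in Ctrl and from 38.5 to 62.9 in the treated libraries, and every group overlapped Ctrl. Its log2 differences ran from 0.10 with Lys05 to 0.29 with BAQ13. FAM200B shares 18 bases with FBXL5 on the opposite strand and had 24 to 115 reads, so that its reads could enter FBXL5 only where counting ignored strand.

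Counting the genes whose 3 libraries did not overlap those of Ctrl gave 2 higher and 0 lower of 9 with Lys05 (8.24% and 7.37% of all genes tested), 2 higher and 1 lower with BAQ12 (7.75% and 7.61%), 3 higher and 3 lower with BAQ13 (14.5% and 14.4%), and 1 higher and 2 lower with BAQ12O (12.5% and 13.3%). The higher genes were FTL with every compound, SLC11A2 with Lys05 and BAQ13, ACO1 with BAQ12 and FTH1 with BAQ13. The lower genes were TFRC with BAQ12, BAQ13 and BAQ12O, STEAP3 with BAQ13 and BAQ12O, and IREB2 with BAQ13. Leaving out BAQ12 replicate 3 from the shared fit raised the number of calls: TFRC, FTL and FTH1 passed with BAQ13, where 13.7% of all genes then passed, and TFRC and FTL with BAQ12O, where 4.99% did. The shares of all genes called were thus also larger than in the fit of 15 libraries.

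The compounds were compared directly in 6 pairs at the same dose and time, which gave 54 tests over the 9 genes. None had an adjusted p under 0.05 by limma. edgeR and DESeq2 also called 0, where they called 0.969% and 0.91% of all tests. An unadjusted p under 0.05 by limma was seen in 7, which is not read as a result because no share over all genes stands beside it. Over all genes tested, the share called was 0.162% for BAQ12 against Lys05, 2.66% for BAQ13 against Lys05, 0.248% for BAQ12O against Lys05, 0.562% for BAQ13 against BAQ12, 0.229% for BAQ12O against BAQ12 and 1.39% for BAQ12O against BAQ13. BAQ12 and BAQ13, which differ by a methylene unit, gave no call in any of the 9 genes. The log2 difference of BAQ13 against BAQ12 was 0.16 for FTL (interval -0.12 to 0.45), 0.43 for FTH1 (interval -0.04 to 0.91) and -0.15 for TFRC (interval -0.41 to 0.11). TFRC with BAQ12O was lower than with Lys05 by a log2 difference of -0.50 (interval -0.76 to -0.24, adjusted p = 0.183 over the genes of this pair and 0.0868 over all 6 pairs, by limma). It lay below every Lys05, BAQ12 and BAQ13 library as a group, with differences of -0.44 from BAQ12 (adjusted p = 0.271 by limma) and -0.30 from BAQ13 (adjusted p = 0.355 by limma). FTL with BAQ13 was above Lys05 by 0.44 (interval 0.15 to 0.73, adjusted p = 0.107 by limma). Without BAQ12 replicate 3, 5 of the 54 tests passed, where 2.69% of all tests did. These were FTL for BAQ13 against Lys05 (0.44), BAQ13 against BAQ12 (0.38) and BAQ12O against BAQ13 (-0.25), FTH1 for BAQ12O against BAQ13 (-0.50) and TFRC for BAQ12O against Lys05 (-0.50).

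Other genes of iron and haem handling were taken from 5 lists by function, 91 genes in all, of which 68 were tested. With BAQ13, 2 rose and 1 fell, which is 2.94% and 1.47% of those tested, next to 3.58% and 2.19% of all genes. None passed with Lys05, BAQ12 or BAQ12O. DESeq2 called 1 with BAQ12, where it called 1.04% of all genes. With BAQ13, edgeR and DESeq2 each called 3, where they called 6.57% and 5.1% of all genes. Without BAQ12 replicate 3 in the fit, 6 passed with BAQ13 and 2 with BAQ12O, where 13.7% and 4.99% of all genes did, and 0 with BAQ12 or Lys05. Without BAQ13 replicate 1 there were 2 with BAQ13, where 3.6% of all genes passed. With arrayWeights, 12 passed with BAQ13, 4 with BAQ12O and 4 with BAQ12, where 22.2%, 6.67% and 5.96% of all genes did. In the fit of 15 equally weighted libraries, all 3 calls lay in the list of haem synthesis, breakdown and transport (15 of 19 genes tested). Of iron transport and storage (10 of 25 tested), transferrin receptor endocytosis and recycling (16 of 17), iron-sulphur cluster assembly (23 of 24) and other transcripts with an IRE (4 of 7), none passed with any compound, and their median log2 differences with BAQ13 were -0.03, 0.08, -0.08 and 0.01.

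The haem genes that passed act at opposite ends of the pathway. HMOX1, heme oxygenase 1, which opens the haem ring and frees its iron, had normalised counts of 47.3, 45.8 and 45 in Ctrl and 222, 164 and 127 with BAQ13, a log2 fold change of 1.84 (SE = 0.28, limma adjusted p = 0.000418). With the other agents the values were 61.8, 40.6 and 65.3 with Lys05, 67, 82.5 and 181 with BAQ12, and 86.2, 75.3 and 75.8 with BAQ12O. All BAQ12 and BAQ12O libraries were above Ctrl, at log2 differences of 1.10 (adjusted p = 0.0821 by limma) and 0.77 (adjusted p = 0.224 by limma). The high library of BAQ12 was again replicate 3, and that of BAQ13 replicate 1. BLVRB, biliverdin reductase B, had 153, 154 and 158 in Ctrl and 278, 226 and 219.6 with BAQ13, a log2 fold change of 0.63 (SE = 0.18, limma adjusted p = 0.045). That call was lost whichever of the 6 libraries compared was left out, with adjusted p up to 0.176 by limma. ALAS1, the rate-limiting enzyme of haem synthesis outside the erythroid lineage, fell with BAQ13 from 54.8, 50.2 and 49.6 to 30.8, 27.3 and 27.7, a log2 fold change of -0.83 (SE = 0.18, limma adjusted p = 0.00999). Its values were 54.3, 46.9 and 48.5 with Lys05, 36.7, 45.1 and 35.2 with BAQ12, and 28, 35.3 and 46.9 with BAQ12O, so that the BAQ12 and BAQ12O libraries all lay below Ctrl without passing the test.

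**Figure D4:**
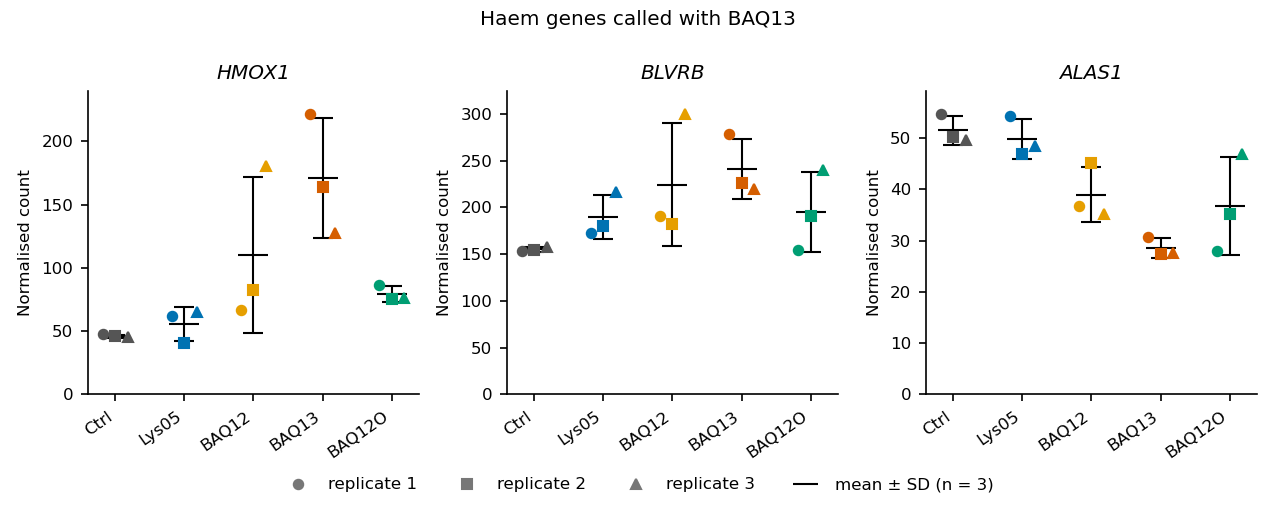
Normalised counts (y axis, from 0) of HMOX1, BLVRB and ALAS1 by group (x axis), with 1 point per library and the mean ± SD (n = 3) in black. With BAQ13, HMOX1 lies between 127 and 222 against 45 to 47.3 in Ctrl, and ALAS1 between 27.3 and 30.8 against 49.6 to 54.8.

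The genes whose pattern over the 15 libraries was most like that of TFRC, by Pearson correlation of log2 values among the genes tested, were POLD3 (0.88), HNRNPAB (0.87), UBE2G1 (0.86), C12orf4 (0.85) and CTBP2 (0.85). None of them belongs to the iron genes or the 5 lists. The 15 libraries share group means, sizes and replicate structure, and these values describe likeness only.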

How the data were processed

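RNA-seq of 15 MIA PaCa-2 libraries was used, grouped by the sample labels. The submitters' processing notes name STAR, HTSeq and DESeq2 and the build GRCh38 (hg38), without versions. A 3′ mRNA kit is named in the labels and a stranded paired-end kit in the study's methods, which is unresolved. With a 3′ kit, counts do not scale with transcript length. The authors deposited 1 normalised signal per gene and library. Every value was a whole multiple of 1 step per library (tolerance 0.02 reads), so the reads were recovered. Medians of ratios over 11705 genes gave back the size factors. The 92 spike-ins had 0 reads.

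limma 3.58.1 (R 4.3.3) was fitted to log2(normalised count + 1) over all 15 libraries, with eBayes and a variance trend and no covariates, after edgeR's filterByExpr (minimum count 10, minimum total 15). On this scale, low genes appear to change less than they do. Benjamini-Hochberg adjustment covered the 10495 tested genes, and an adjusted p under 0.05 was called. edgeR 4.0.16 and DESeq2 1.42.0 on the recovered reads, and the other alternatives of the closing section, were run beside it. The models were also run on simulated data with changes of at least 2-fold. Smaller changes, such as those of FTL and TFRC here, were not simulated. Confidence intervals are at 95% and floors of 3 reads cover counting error only. Coordinates and transcripts come from GENCODE 29, in which 56531 of 60107 identifiers are found. Summaries and plots were made in Python 3.11.15 (pandas 2.3.3, numpy 2.4.6, matplotlib 3.10.9).

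The 10 genes and the lists were chosen with earlier results of these data known. All 10 genes are named; of each list, up to 4 genes called with any compound and changed most; and the 5 genes most correlated with TFRC.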

Additional observations from a re-analysis of the deposited data

How the results depend on the processing

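Of the 9 genes tested against Ctrl, FTL with BAQ13 and TFRC with BAQ12O kept their direction in every alternative run, with log2 fold changes of 0.49 to 0.70 and -0.74 to -0.52. Both calls were kept by edgeR, DESeq2, other pseudocounts, scalings and filters. The replicate block also kept them (adjusted p = 0.0242 for FTL and 0.024 for TFRC by limma). It left 1, 1, 0 and 0 genes called with BAQ13, BAQ12O, BAQ12 and Lys05, where 4.88%, 1.13%, 0.734% and 0.2% of all genes passed. Over the pairs it called 0 of 54, where 0.64% of all tests passed. Same-numbered libraries did not consistently deviate together (correlations -0.492 to 0.2). Of 12 treated libraries, 3 correlated best with the Ctrl library of their own number. No pairing by number was thus seen, which does not exclude that same-numbered samples were handled together. The study's cutoff of a 2-fold change was applied with limma's p before adjustment, under 0.05, in place of the study's t test. It called 0 of the 9 genes with BAQ13 and 0 with BAQ12O, where 2.16% and 0.953% of all genes passed. At such shares, 0 of 9 is what the background would also give. With arrayWeights the counts were 1 with BAQ12, 7 with BAQ13, 2 with BAQ12O and 9 over the pairs, where 5.96%, 22.2%, 6.67% and 7.84% of all tests passed. STEAP3 and SLC11A2 were the genes not called with BAQ13. The weights of BAQ13 replicates 1 to 3 were 0.43, 3.52 and 0.657, so its weighted estimates rest mostly on replicate 2. With only the 6 libraries compared the counts were 1 with Lys05, 2 with BAQ13, 2 with BAQ12O and 3 over the pairs, against 1.1%, 9.02%, 8.3% and 1.25%. Leaving out libraries gave 0 to 1 with BAQ12, 0 to 4 with BAQ13, 0 to 2 with BAQ12O and 0 to 9 over the pairs. The 1 with BAQ12 came without BAQ12 replicate 1 (0.934% of all genes) or without both BAQ12 replicate 3 and BAQ13 replicate 1 (2.12%). The 2 with BAQ12O came without BAQ12 replicate 3 (4.99%) or without both (9.28%). The 0 with BAQ13 came without Ctrl replicate 3 (3.05%) or BAQ13 replicate 1 (3.6%). With BAQ12O it came without Ctrl replicate 3 (0.715%) or BAQ12O replicate 3 (0.724%). With BAQ12 and over the pairs, 0 came at 0.279% to 1.31%. The 4 with BAQ13 and the 9 are without BAQ12 replicate 3 and BAQ13 replicate 1, chosen after seeing the data, where 12% and 3.19% of all tests passed. The cause was not tested.

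Signs turned only for differences that did not pass. FTH1 with BAQ12 was 0.0711 by edgeR, 0.0579 by DESeq2 and 0.246 with arrayWeights, and SLC11A2 with BAQ12 was 0.0796 with arrayWeights. Leaving out libraries gave -0.26 to 0.335 for FTH1, -0.107 to 0.124 for SLC11A2 and -0.0858 to 0.162 for NCOA4 with BAQ12; -0.243 to 0.0768 for FTH1, -0.00482 to 0.087 for SLC11A2, -0.00763 to 0.0997 for IREB2 and -0.0686 to 0.277 for ACO1 with BAQ12O; and -0.28 to 0.0557 for STEAP3 and -0.0175 to 0.243 for FBXL5 with Lys05. Over all genes, alternatives called 19 to 115 with Lys05 (25 in the fit reported), 31 to 626 with BAQ12 (103), 227 to 2333 with BAQ13 (606) and 75 to 974 with BAQ12O (155). Genes under about 20 reads, such as STEAP3, are limited by depth.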
